A study of Rattus norvegicus with 17 samples.

Results

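Integrins, laminins, cadherins, claudins and their relatives in junctions and cell adhesion were examined in rat kidney after sub-total nephrectomy (SNx). The 29 genes were taken by symbol family from the study's own lists of transcripts, among the 2007 identifiers that the lists used here pair with a symbol, and the count table holds 23487 genes. They comprise 6 claudins, 3 connexins, 4 cadherins and desmosomal genes, 5 immunoglobulin-type adhesion molecules, 2 laminin chains and 9 integrin chains. No occludin, zonula occludens, E-cadherin, N-cadherin, VCAM or PECAM gene was paired with an identifier in the lists used here, so these were not analysed. All 29 members passed the filter on low counts. A set of 8 members was in the list that the study drew from these same kidneys (Cldn4, Gja1, Cdh6, Itgb4, Itga2b, Itgad, Itgae and Itgb7), so their differences chose them and are given without a test. The other 21 came only from the list of study 1, made on other rats at another site, and were tested here in the fit over all genes. Only part of each list was used here, so some of these 21 may also stand in the rest of the list drawn from these kidneys.

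The kidneys were those of male Wistar Han rats of study 2, with 1 library per rat. SNx rats (12 libraries) had part of the right kidney resected and the left kidney removed in a later operation. Controls (5 libraries) kept both kidneys and are labelled NoOp, whereas the paper describes the controls of study 2 as sham-operated. The SNx rats were killed at different times, when proteinuria or serum creatinine was to have passed a limit, and the labels do not say which of the 12 had passed it. The paper states that only 6 of the operated rats of study 2, a minority, did. With 12 SNx libraries at 1 per rat, the SNx group therefore holds kidneys from rats below the limit. SNx libraries held between 19210434 and 30784070 counts and controls between 30454170 and 43876369. The number range of the library names held all controls with 6 SNx libraries, the other 6 SNx libraries being in a second range. What that range stands for is not labelled.

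Epithelial cells of the nephron are joined by tight junctions, where claudins set which ions pass between cells, by cadherin junctions and desmosomes, and by gap junctions built of connexins. Each nephron segment carries its own claudins. Laminins are the network-forming chains of basement membranes, and integrins, each a pair of an alpha and a beta chain, anchor cells to such matrix. Leukocytes use another set of integrins, most of them paired with the beta chain encoded by Itgb2, to bind immunoglobulin-type molecules such as ICAM-1 on other cells. In bulk tissue, fewer cells of a type and less RNA per cell cannot be told apart.

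Adhesion genes were mostly higher in SNx kidneys and junction genes went both ways. Of the 21 tested members, 14 rose and 5 fell at FDR < 0.05 (edgeR's quasi-likelihood test), and Cldn3 and Itga7 did not pass. The background is high, since 58.0% of all 15438 tested genes passed the same threshold, 30.3% as higher and 27.7% as lower. Among the 1507 other named genes that came only from the study 1 list, 92.1% passed (49.5% higher, 42.6% lower), so the 90.5% of tested members that passed lies near that background. Members higher in SNx made up 66.7% of those tested and members lower 23.8%. The median log2 fold change was 0.99 over the tested members, 1.23 over all 29, 0.33 over the other named genes of the study 1 list and 0.02 over all tested genes.

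By class, the 10 tested junction genes (claudins, connexins, cadherins and plakophilin) gave 4 that rose, 5 that fell and 1 that did not pass. The 11 tested adhesion genes (immunoglobulin-type molecules, laminins and integrins) gave 10 that rose, 0 that fell and 1 that did not pass. A plain loss of junction genes beside a gain of adhesion genes therefore does not describe these members, because Cldn6, Cldn19, Cdh17 and Pkp1 rose. The contrast also depends on the classes used. Nectin2, which starts adherens junctions, and the nectin-like Cadm3 and Cadm4 were counted as adhesion genes, and each rose. Every SNx library lay above every NoOp library for 17 of the 29 members, against 13.5% of all tested genes, and below every NoOp library for 5, against 9.6%. Among these 22 are 7 of the 8 members that were listed on these kidneys, whose differences chose them. Of the 21 tested members, 11 lay wholly above and 4 wholly below the controls. Those members came from a list whose other named genes passed more often than all tested genes (92.1% against 58.0%). The share without overlap among these other named genes is not given. Expression is given below as log2 CPM, the log2 of counts scaled to a common library size (CPM) with TMM factors and a prior count of 2, and NoOp values are always listed from NoOp 1 to NoOp 5.

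**Figure D1:**
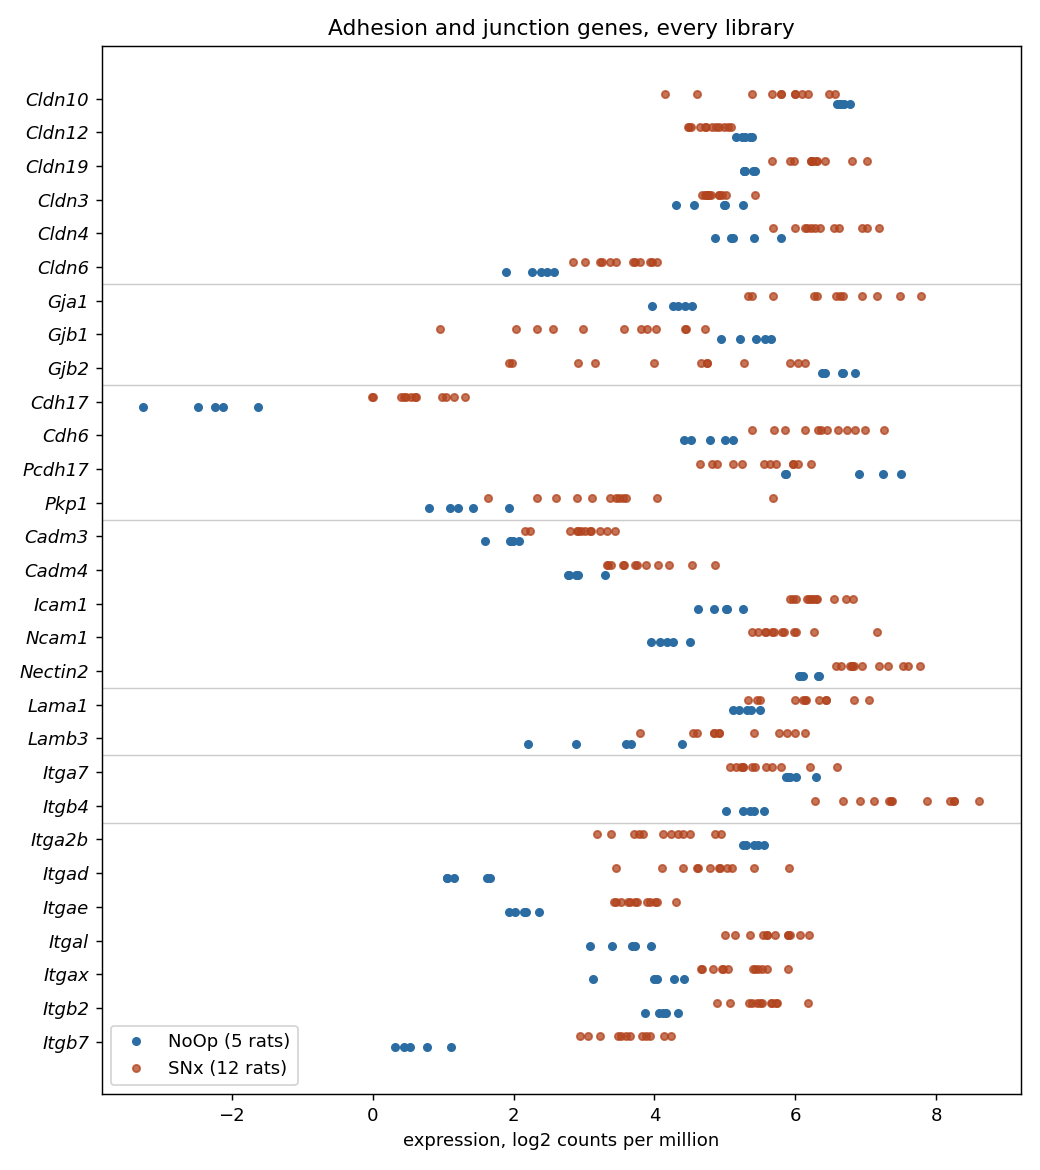
Expression of the 29 members (rows, grouped by class between the grey lines) in log2 CPM, with 1 point for each NoOp (blue) and SNx (red) library. The colours do not overlap for 22 members, and Cldn3, Cldn4, Itga7, Lama1, Lamb3, Pcdh17 and Pkp1 are the 7 where they do.

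Among claudins, 2 of 5 tested members fell, 2 rose and 1 did not pass. Cldn10, whose splice forms are used in the proximal tubule and in the thick ascending limb, was between 4.15 (SNx 1) and 6.56 (SNx 11) with a median of 5.89 in SNx, against 6.64, 6.69, 6.77, 6.63 and 6.59 in NoOp. All SNx libraries were below all controls, by very little in SNx 9 and SNx 11 and by far in SNx 1 and SNx 5. The log2 fold change was -0.81 ± 0.27 (SE, adjusted p = 0.017, edgeR), and the SD was 10.3 times as large in SNx as in NoOp. Cldn12, a claudin broadly present in epithelia, ranged from 4.47 to 5.09 around a median of 4.77 in SNx and stood at 5.16, 5.35, 5.24, 5.38 and 5.29 in NoOp. This was a small but complete separation, with a log2 fold change of -0.50 ± 0.10 (adjusted p = 0.00051, edgeR).

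Cldn19, a claudin of the thick ascending limb needed for magnesium and calcium uptake, moved the other way. Its SNx values ran from 5.66 through a median of 6.24 to 7.02 (SNx 8), and the controls were tightly placed at 5.40, 5.27, 5.43, 5.27 and 5.29. It rose by 0.99 ± 0.17 on the log2 scale (adjusted p = 0.00016, edgeR). Cldn6, a claudin best known from embryonic epithelia, was at 2.84 to 4.04 (median 3.57) in SNx and at 2.57, 2.48, 2.26, 1.89 and 2.39 in NoOp. Again no library overlapped, and the rise was 1.25 ± 0.20 (adjusted p = 7.8e-05, edgeR).

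Cldn4, a claudin of the collecting duct, had SNx values of 5.68 to 7.19 (median 6.32) and NoOp values of 4.86, 5.09, 5.11, 5.41 and 5.79. SNx 11 was below NoOp 5, and the remaining 11 SNx libraries were above all controls. Its fold change, 1.21 ± 0.23, is a description because it was listed on these kidneys. Cldn3, also found in the distal nephron, lay between 4.68 and 5.42 (median 4.79) in SNx and at 4.30, 4.56, 4.99, 5.25 and 5.0 in NoOp. Here the controls spread more widely than the SNx libraries, and the log2 fold change of 0.02 ± 0.14 did not pass (adjusted p = 0.89, edgeR).

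The 2 thick-limb and tubular claudins Cldn19 and Cldn10 were set against each other within each library, which removes library size. The log2 ratio Cldn19/Cldn10 was -1.33 ± 0.07 in NoOp (SD, n = 5) and 0.55 ± 0.85 in SNx (n = 12). All 12 SNx libraries, from -0.50 to 2.07, were above all controls, which lay between -1.42 and -1.24. The difference was 1.89 (exact permutation test, two-sided, adjusted p = 0.00113 over 7 ratios), with 2.14 in the first and 1.63 in the second number range. The separation was fixed in advance, since every SNx library was above all controls for Cldn19 and below them for Cldn10. The test of this ratio therefore adds no evidence to that for each gene alone. Across SNx libraries the pair showed no detectable correlation (Pearson r = -0.14, Spearman rho = -0.20, permutation p = 0.65 and 0.53, adjusted p = 0.65 and 0.53, n = 12), and r was -0.25 without SNx 1 and SNx 5. Within the number ranges r was -0.46 and -0.79 (n = 6 each).

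Among connexin members, the beta connexins Gjb1 and Gjb2 fell, and Gja1, listed on these kidneys and not tested, was higher. Gjb1, a connexin abundant in liver and present in proximal tubule, was at 0.96 (SNx 1) to 4.71 (SNx 4) with a median of 3.69 in SNx and at 5.44, 5.65, 4.94, 5.57 and 5.21 in NoOp. Gjb2, its usual partner in mixed channels, was at 1.93 (SNx 5) to 6.13 (SNx 11) with a median of 4.70, against 6.37, 6.85, 6.67, 6.66 and 6.42. Neither gene had an SNx library as high as the lowest control, and both spread far more in SNx, with SDs of 1.15 and 1.5 against 0.29 and 0.20.

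Gjb1 fell with a log2 fold change of -1.73 ± 0.41 (adjusted p = 0.0021, edgeR) and Gjb2 with -1.72 ± 0.54 (adjusted p = 0.011). These are folds of mean counts, to which the libraries with higher counts give more weight, and the means of log2 CPM differed by more (3.31 against 5.36 for Gjb1, 4.29 against 6.59 for Gjb2). The libraries kept nearly one order for both genes, with Pearson r = 0.97 (permutation p = 1e-05, the smallest that 100000 permutations can give, adjusted p = 4e-05) and Spearman rho = 0.97 (adjusted p = 0.00016) over 12 SNx libraries. Without SNx 1 and SNx 5, r was 0.98, and within the number ranges it was 0.96 and 0.99. Of all other tested genes, 1.44% correlated with Gjb1 at least as highly as Gjb2 did.

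Gja1, a connexin of vessels and glomeruli, was at 5.33 (SNx 4) to 7.78 (SNx 5) with a median of 6.61 in SNx, and at 4.43, 4.26, 3.97, 4.53 and 4.34 in NoOp. The libraries did not overlap, and the log2 fold change was 2.39 ± 0.38, given as a description since these kidneys chose it. SNx 5, where Gjb2 was lowest, had the highest Gja1, and SNx 4 and SNx 11, with the 2 lowest Gja1 values in SNx, had the 2 highest Gjb2 values.

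Proximal tubule markers moved with the beta connexins. All 6 that could be read (Slc34a1, Lrp2, Cubn, Slc22a6, Slc6a19 and Aqp1) fell, and their summed level was 1430 to 12300 CPM in SNx against 16200 to 19400 CPM in NoOp. Here and below, cell type markers could be read only where the study had listed them. Of the other named genes of the study 1 list, 42.6% fell and 49.5% rose. That sum was lowest in SNx 1 and SNx 5 and highest in SNx 11 and SNx 4. The log2 ratio of Gjb1 to Lrp2, the endocytic receptor megalin of that segment, was -8.27 ± 0.35 (SD) in SNx and -7.60 ± 0.18 in NoOp. SNx minus NoOp was -0.66 (exact permutation test, two-sided, adjusted p = 0.00396), with 10 of 12 SNx libraries below all controls. The call depended on the marker. The difference was -1.20 against Cubn (exact permutation adjusted p = 0.0095), -0.61 against Slc6a19 (adjusted p = 0.153), -0.08 against Aqp1 (adjusted p = 0.613), -0.03 against Slc34a1 (adjusted p = 0.917) and 0.30 against Slc22a6 (adjusted p = 0.524). A fall of Gjb1 beyond that of the segment was therefore seen against 2 of the 6 markers. Cldn10 relative to Lrp2 was higher, at -5.85 ± 0.43 against -6.30 ± 0.16, a difference of 0.45 (adjusted p = 0.0486, exact permutation test) that was above all controls in 8 libraries and below them in 1. With the other markers the difference was -0.09 (Cubn), 0.50 (Slc6a19), 1.04 (Aqp1), 1.08 (Slc34a1) and 1.4 (Slc22a6), and it passed for Aqp1 and Slc22a6 (exact permutation adjusted p = 0.00113 and 0.0294). The call against Lrp2 did not hold in the first number range alone (0.21, adjusted p = 0.364) or when any 1 of 12 single libraries was left out. Of the other nephron segments, 3 collecting duct markers (Atp6v0a4, Slc4a9 and Slc26a4) summed to 255 to 759 CPM in SNx and 912 to 959 CPM in NoOp. Aqp2 and Aqp3, also chosen for that segment, could not be matched, so this sum does not stand for the whole collecting duct. The 2 podocyte markers, Ddn and Ptpro (the latter listed on these kidneys), summed to 35.4 to 78.1 CPM in SNx and 129 to 161 CPM in NoOp. The 2 distal tubule markers summed higher, to 24.2 to 105 CPM in SNx and 14.8 to 20.0 CPM in NoOp, but moved apart, Trpv5 rising (log2 fold change 1.52) and S100g falling (-2.13). Their part in the changes of the distal claudins was not tested. No thick ascending limb marker could be matched, so that segment, which bears on Cldn19, was not measured.

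**Figure D2:**
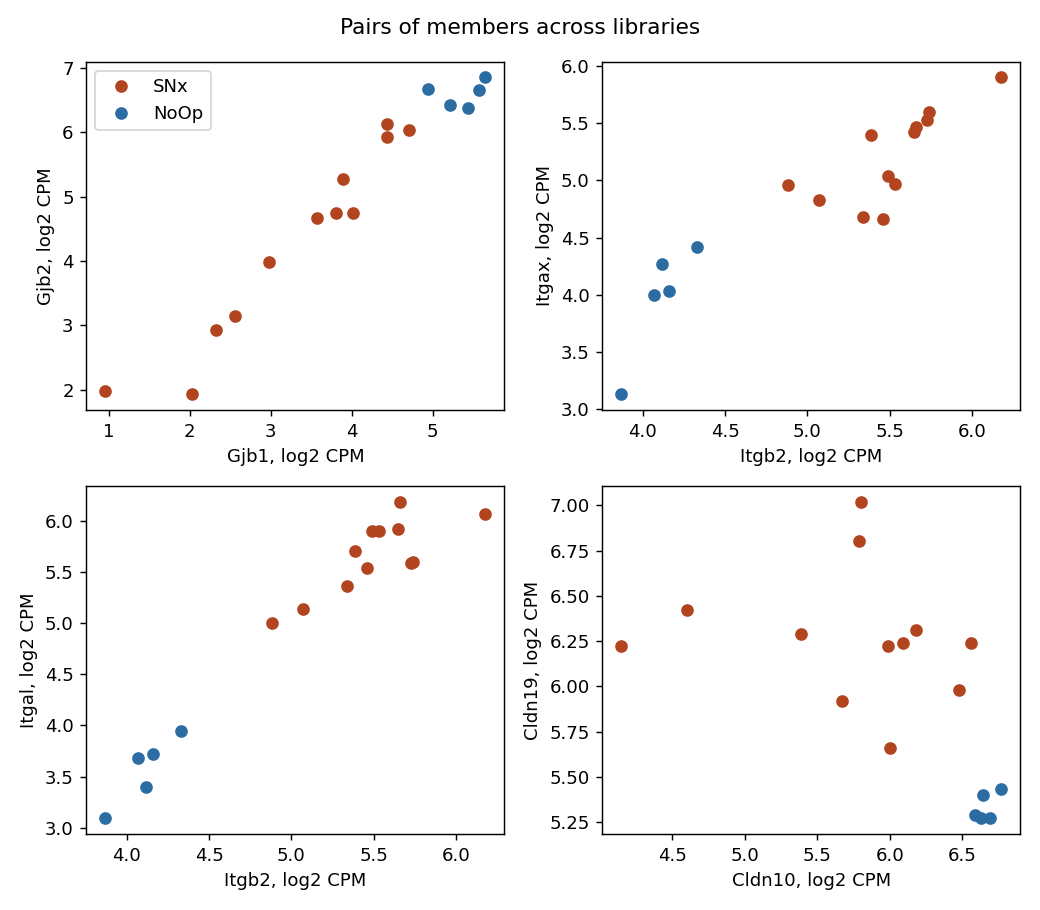
Log2 CPM of 4 pairs of members, with 1 point per SNx (red) or NoOp (blue) library. Gjb1 and Gjb2 lie on a line (r = 0.97 in SNx), and less tightly so do Itgb2 with Itgal (0.79) and Itgb2 with Itgax (0.75), whereas Cldn10 and Cldn19 show no line (-0.14).

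The sequences before the gene starts of 3 tested members that were lowest in SNx 1 and SNx 5, and of Icam1 as a riser for contrast, are shown for their motif letters. They are the 250 bases upstream of the start in RefSeq's GRCr8 (the counts were made on Rn6), at chrX:70541595-70541844 for Gjb1 (+ strand), chr15:35381954-35382203 for Gjb2 (- strand), chr15:102269608-102269857 for Cldn10 (+) and chr8:27829595-27829844 for Icam1 (+). Capitals mark any match, on either strand, to an HNF1 half-site (GTTAAT), an NF-kB-type site (GGNNNTTCC), an AP-1 site (TGANTCA) or an ETS core (AGGAAG).
Gjb1: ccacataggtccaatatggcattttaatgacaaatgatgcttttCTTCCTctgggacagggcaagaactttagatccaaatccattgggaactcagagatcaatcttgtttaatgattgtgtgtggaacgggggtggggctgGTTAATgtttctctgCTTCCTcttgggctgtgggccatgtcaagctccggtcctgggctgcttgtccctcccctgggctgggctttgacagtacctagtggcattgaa
Gjb2: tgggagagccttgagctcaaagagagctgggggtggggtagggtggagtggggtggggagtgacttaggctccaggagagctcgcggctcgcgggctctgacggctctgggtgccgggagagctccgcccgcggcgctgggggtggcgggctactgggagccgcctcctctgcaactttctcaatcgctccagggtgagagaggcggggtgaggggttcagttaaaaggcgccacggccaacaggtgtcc
Cldn10: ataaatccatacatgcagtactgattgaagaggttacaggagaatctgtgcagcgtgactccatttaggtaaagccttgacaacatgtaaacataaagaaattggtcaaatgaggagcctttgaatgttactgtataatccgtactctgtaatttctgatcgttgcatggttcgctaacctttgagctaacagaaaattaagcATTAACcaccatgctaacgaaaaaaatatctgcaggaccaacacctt
Icam1: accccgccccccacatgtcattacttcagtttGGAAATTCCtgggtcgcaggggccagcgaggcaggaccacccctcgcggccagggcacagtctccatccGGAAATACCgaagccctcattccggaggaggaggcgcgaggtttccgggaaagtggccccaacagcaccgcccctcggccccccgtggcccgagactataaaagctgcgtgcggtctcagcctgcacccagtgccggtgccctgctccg
Gjb1 holds 1 HNF1 half-site and 2 ETS cores, Cldn10 has 1 HNF1 half-site, Icam1 has 2 matches to the NF-kB-type site, and Gjb2 holds none of the 4. A start was listed for 20 of the 29 members. The HNF1 half-site was in 3 of these (Cldn10, Cldn12 and Gjb1) and in 6.45% of all 33469 promoters, and the NF-kB-type site in 5 (Icam1, Itga2b, Lamb3, Pcdh17 and Pkp1) and in 15.4%. The AP-1 site was in 3 (Cadm3, Gja1 and Itgax) and in 6.34%, and the ETS core in 8 and in 29.5%. A match describes letters only.

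Cadherins and desmosomal genes were mostly higher in SNx. Cdh17, a cadherin of liver and intestine, was near the limit of detection in controls, with 1 to 7 counts, and had 20 to 75 counts in SNx. In log2 CPM it was -0.01 to 1.31 (median 0.58) in SNx and -1.63, -2.23, -3.25, -2.12 and -2.48 in NoOp. It rose by 3.47 ± 0.36 (adjusted p = 1.5e-06, edgeR), the highest log2 fold change of the tested members, from a very low level in every control.

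Pkp1, a plakophilin of desmosomes in stratified epithelia, was at 1.64 (SNx 11) to 5.68 (SNx 1) with a median of 3.41 in SNx, and at 1.10, 0.80, 1.21, 1.43 and 1.94 in NoOp. SNx 1 stood far above the others and SNx 11 lay below NoOp 5, with a rise of 2.37 ± 0.55 (adjusted p = 0.0017, edgeR) that was 1.80 without SNx 1 and SNx 10. Cdh6, a cadherin of the developing and adult proximal tubule, was at 5.38 to 7.26 (median 6.40) in SNx and at 5.11, 5.0, 4.52, 4.79 and 4.42 in NoOp. There was no overlap, and the log2 fold change of 1.69 ± 0.27 describes a gene listed on these kidneys.

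Pcdh17, a protocadherin, fell by contrast, with a log2 fold change of -1.26 ± 0.28 (adjusted p = 0.0013, edgeR). SNx values were 4.65 to 6.22 (median 5.59), while the controls were in 2 sets, at 7.50, 7.24 and 6.90 in NoOp 1, 3 and 4 and at 5.85 and 5.87 in NoOp 2 and 5. Only 8 of 12 SNx libraries were below all controls.

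Immunoglobulin-type adhesion molecules, 5 of 5 tested, rose without overlap. In comparison, 49.5% of the other named genes of the study 1 list rose. Among all tested genes, 13.5% lay wholly above the controls. Icam1, the ICAM-1 that leukocyte integrins bind, was at 5.92 to 6.81 (median 6.23) in SNx and at 5.03, 5.02, 4.85, 5.25 and 4.62 in NoOp. Its rise of 1.34 ± 0.15 had the smallest adjusted p of this class (3e-06, edgeR), and its SNx libraries were close together (SD 0.28). Ncam1, the neural cell adhesion molecule, also carried by embryonic kidney and some interstitial cells, was at 5.39 to 7.16 (median 5.75, highest in SNx 1), against 4.51, 4.26, 3.95, 4.18 and 4.08, and rose by 1.75 ± 0.25 (adjusted p = 3.5e-05).

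Nectin2, a nectin that starts adherens junctions, had SNx values of 6.58 to 7.77 (median 6.88) and NoOp values of 6.07, 6.10, 6.32, 6.05 and 6.33. Cadm3 and Cadm4, of the nectin-like family, were lower in level. For Cadm3 the SNx libraries lay at 2.16 to 3.44 (median 2.99) and NoOp at 2.08, 1.99, 1.95, 1.96 and 1.60. For Cadm4 they lay at 3.32 to 4.86 (median 3.73) and 2.79, 2.77, 2.92, 2.88 and 3.30. Each gene was separated in all libraries, though the gap between the groups was narrow for the 2 Cadm genes (Cadm4 in SNx 8 was 3.32 and in NoOp 5 3.30). Their log2 fold changes were 0.93 ± 0.19, 1.06 ± 0.18 and 0.99 ± 0.24 in the order Nectin2, Cadm3, Cadm4 (adjusted p = 0.00063, 0.00018 and 0.0023, edgeR).

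Both laminin chains rose in SNx kidneys. Lama1, the alpha chain of the earliest basement membranes, was at 5.32 (SNx 4) to 7.04 (SNx 5) with a median of 6.14 in SNx, and at 5.37, 5.49, 5.11, 5.31 and 5.20 in NoOp. It rose by 0.93 ± 0.24 (adjusted p = 0.0034, edgeR), in 10 of 12 libraries above all controls. Lamb3, a chain of the laminin of skin and urothelial basement membranes, was at 3.80 (SNx 11) to 6.13 (SNx 1) with a median of 4.92, against 2.20, 3.66, 2.88, 3.60 and 4.39. The controls were as spread as the SNx libraries (SD 0.83 and 0.70), 11 SNx libraries were above all of them, and the rise was 1.77 ± 0.39 (adjusted p = 0.0013).

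Itgb4, the integrin beta chain of hemidesmosomes and a laminin receptor, was at 6.28 (SNx 11) to 8.60 (SNx 1) with a median of 7.37 in SNx, and at 5.25, 5.02, 5.55, 5.36 and 5.41 in NoOp. All SNx libraries were above all controls. Its log2 fold change of 2.35 ± 0.35 describes a gene listed on these kidneys. Cldn3 and Cldn4, the pair of neighbouring claudin genes, gave Pearson r = 0.55 across the 12 SNx libraries (permutation p = 0.061, adjusted p = 0.081) and Spearman rho = 0.31 (adjusted p = 0.44), and r = 0.14 without SNx 6 and SNx 10. Within the number ranges r was 0.55 and 0.30.

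Urothelial markers varied widely among these kidneys. The summed level of Upk2, Upk3a, Krt5 and Tp63 was 0.168 to 84.9 CPM in SNx and 1.14 to 10.4 CPM in NoOp, with 2 of the 4 called higher. SNx 1 (84.9 CPM) and SNx 10 (64.5 CPM) had the highest sums and SNx 5 the lowest. Without SNx 1 and SNx 10 the log2 fold changes were 1.57 for Lamb3 (adjusted p = 0.0024, edgeR) and 2.13 for Itgb4. In SNx 5, with urothelial markers at 0.168 CPM, Lamb3 was 4.85 and Itgb4 8.25. The part of urothelial content in these results was not tested. In the controls, NoOp 1 had the lowest and NoOp 5 the highest sum, and the same 2 libraries were the extremes for Lamb3 and Cldn4.

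Itga7, the laminin-binding integrin alpha chain of muscle, was the only adhesion gene tested that did not pass. SNx libraries were at 5.07 to 6.59 (median 5.40), and controls at 5.90, 6.29, 5.92, 5.87 and 6.01. All but SNx 1 and SNx 5 were below every control, and SNx 1 was above them. The log2 fold change was -0.38 ± 0.21 (adjusted p = 0.12, edgeR). Without SNx 1 it was -0.51 and passed (adjusted p = 0.0091), and it was -0.14 in the first and -0.68 in the second number range. Smooth muscle markers Des, Cnn1, Tagln and Actg2 summed to 98.4 to 456 CPM in SNx, highest in SNx 1, and 99.0 to 139 CPM in NoOp.

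**Figure D3:**
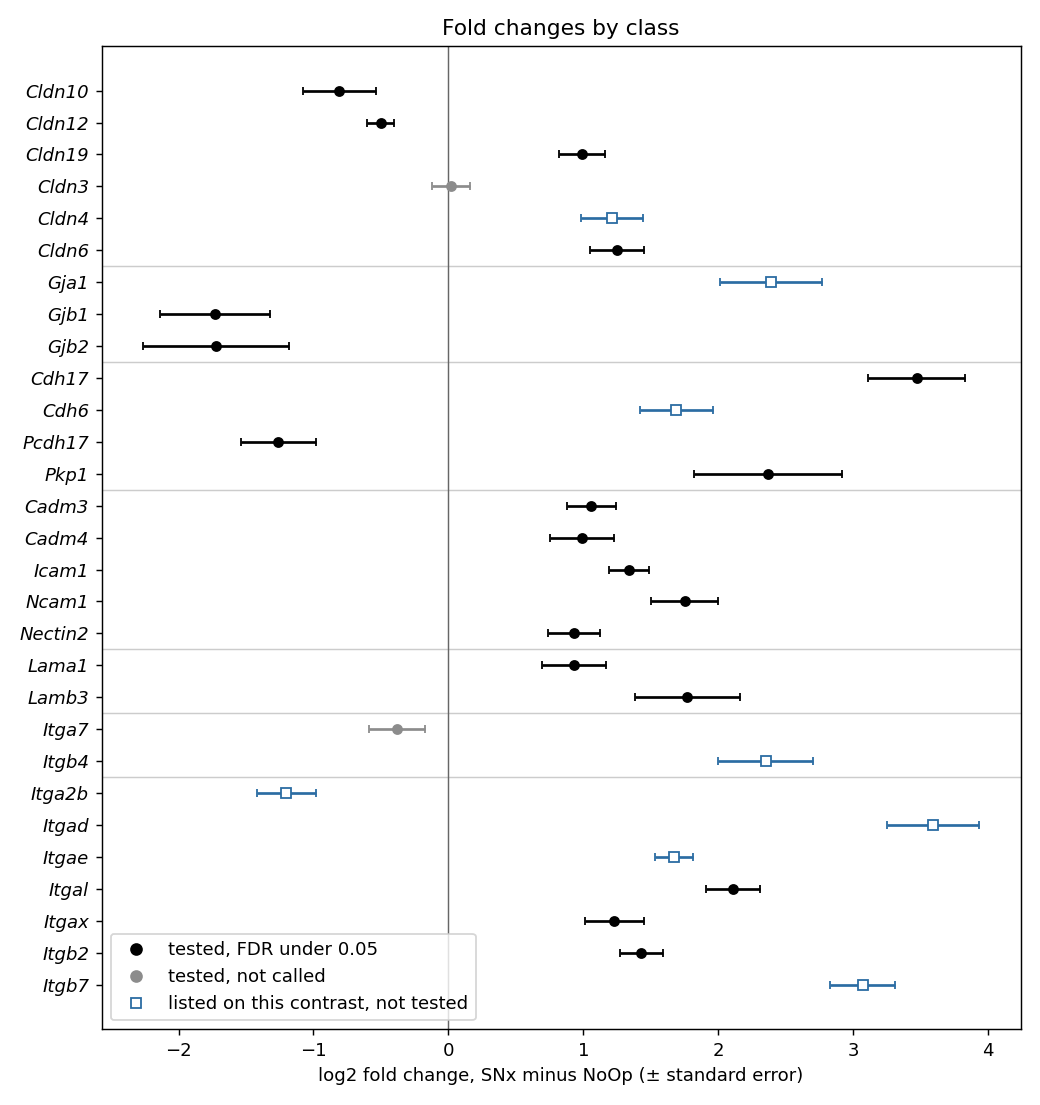
Log2 fold change of SNx over NoOp for the 29 members with its standard error, back-computed from the test statistic, by class. Black points passed FDR < 0.05, grey points (Cldn3, Itga7) did not, and open blue squares are the 8 members listed on these same kidneys and not tested, of which Itga2b alone lies under 0.

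Leukocyte and platelet integrins were higher with 1 exception, the platelet chain Itga2b. Itgb2, the beta chain shared by the leukocyte set, was at 4.88 (SNx 6) to 6.18 (SNx 1) with a median of 5.51 in SNx and at 4.07, 4.16, 4.12, 4.33 and 3.87 in NoOp. Itgal, its alpha partner on lymphocytes and other leukocytes, was at 5.0 (SNx 6) to 6.19 (SNx 5) with a median of 5.66, against 3.68, 3.72, 3.40, 3.95 and 3.09. Itgax, the partner on dendritic cells and macrophages, was at 4.66 to 5.90 (median 5.22), against 4.0, 4.03, 4.27, 4.42 and 3.13. None of the 3 overlapped between groups, and NoOp 5 was the lowest control for each. Among all tested genes, 13.5% lay wholly above the controls.

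All 3 were tested and rose, Itgb2 by 1.43 ± 0.16 (adjusted p = 3.8e-06, edgeR), Itgal by 2.11 ± 0.20 (adjusted p = 5.7e-07) and Itgax by 1.23 ± 0.22 (adjusted p = 0.00028). Itgal had the smallest adjusted p of the tested members. Itgb2 correlated across SNx libraries with Itgal (Pearson r = 0.79, permutation p = 0.002, adjusted p = 0.0053, Spearman rho = 0.71, adjusted p = 0.024) and with Itgax (r = 0.75, permutation p = 0.0032, adjusted p = 0.0064, rho = 0.86, adjusted p = 0.0023). Without SNx 1 and SNx 6 these were 0.65 and 0.72, and the number ranges gave 0.81 and 0.73 for Itgal and 0.75 and 0.76 for Itgax. With SNx 1 alone left out, Itgax no longer passed (r = 0.63, adjusted p = 0.065). Itgb2 and its ligand gene Icam1 were not correlated in a detectable way (r = 0.16, permutation p = 0.61, adjusted p = 0.65, rho = 0.21, adjusted p = 0.53), with r = 0.25 without SNx 1 and SNx 6 and 0.10 and -0.02 in the ranges. That value turned on single libraries, being -0.34 without SNx 1 and 0.65 without SNx 6.

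The remaining leukocyte chains were listed on these kidneys and are described. Itgad, an alpha chain of macrophages, was at 3.46 to 5.91 (median 4.85) in SNx and at 1.05, 1.63, 1.66, 1.15 and 1.05 in NoOp, a log2 fold change of 3.59 ± 0.34. Itgb7, the beta chain of gut-homing lymphocytes, was at 2.94 to 4.24 (median 3.62) against 0.32, 0.77, 1.11, 0.53 and 0.45, with 3.07 ± 0.24. Itgae, which pairs with Itgb7 on T cells within epithelia, was at 3.43 to 4.30 (median 3.74) against 1.94, 2.15, 2.18, 2.36 and 2.02, with 1.67 ± 0.14. Each lay in all SNx libraries above all controls, with the narrowest gap for Itgae. Itgad and Itgax are close paralogues, so reads may have been divided between them and their separate values are uncertain.

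Itga2b, the alpha chain of the platelet fibrinogen receptor, was the exception. It was at 3.18 (SNx 5) to 4.95 (SNx 4) with a median of 4.18 in SNx, and at 5.30, 5.47, 5.26, 5.41 and 5.56 in NoOp. All SNx libraries were below all controls, with a log2 fold change of -1.20 ± 0.22, also a description. None of the 4 platelet markers chosen could be matched to an identifier, so platelet content was not measured.

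Leukocyte markers rose beside these genes. Ptprc, Coro1a, Laptm5 and Cd53 summed to 132 to 269 CPM in SNx and 31.6 to 57.4 CPM in NoOp, without overlap. All 8 tested myeloid, 3 tested T cell and 4 tested B cell markers rose as well, with medians of 1.79, 1.70 and 3.90 on the log2 scale. Ptprc, the pan-leukocyte antigen CD45, rose by 2.18 (adjusted p = 2e-06, edgeR), so the integrins were also set against it within each library.

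Itgal/Ptprc did not differ detectably, at -0.32 ± 0.28 in SNx and -0.21 ± 0.37 in NoOp (SD, n = 12 and 5, difference -0.11, exact permutation test, adjusted p = 0.524). Itgb2/Ptprc was lower in SNx, at -0.46 ± 0.28 against 0.33 ± 0.45 (difference -0.80, exact permutation adjusted p = 0.00151), with 9 of 12 libraries below all controls. Itgax/Ptprc was lower too, at -0.77 ± 0.34 against 0.19 ± 0.31 (difference -0.96, exact permutation adjusted p = 0.00113), with 11 libraries below. Icam1/Ptprc was 0.31 ± 0.49 against 1.18 ± 0.40 (difference -0.87, exact permutation adjusted p = 0.00566), again with 11 libraries below. In the first number range alone the Icam1 ratio did not pass (-0.70, adjusted p = 0.0818). So Itgb2, Itgax and Icam1 rose less than Ptprc did, and for Itgal no difference from Ptprc was detected. The other 3 leukocyte markers, Coro1a, Laptm5 and Cd53, had log2 fold changes of 2.12, 1.86 and 2.15, and ratios to them were not computed.

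**Figure D4:**
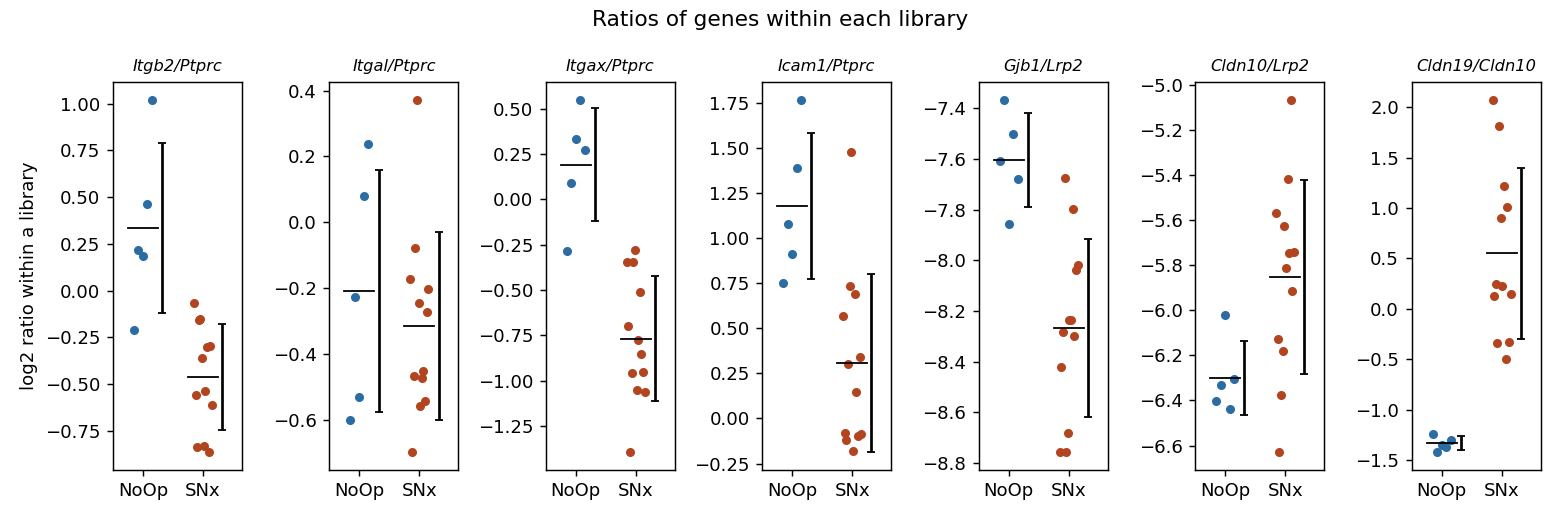
Log2 ratios of 2 genes within each library for 7 pairs, with 1 point per library, a line at the group mean and a bar of 1 SD. SNx libraries lie lower for Itgb2, Itgax and Icam1 over Ptprc and for Gjb1 over Lrp2, higher for Cldn19 over Cldn10 in all 12, and mixed with the controls for Itgal over Ptprc. Each panel has its own axis.

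The 12 SNx libraries were not alike. The paper reports that RNA integrity ranged widely over its samples, and the labels give no value per library. Its part in this spread was not tested. Over the 22 members without overlap, SNx 11 was the library nearest to the controls for 7 and SNx 4 for 7, whereas SNx 1 was the farthest for 12 and SNx 5 for 6. SNx values spread more than NoOp values for 24 of 29 members, with a median SD ratio of 2.12, and 81.9% of all tested genes spread more in SNx as well. Log2 fold changes kept their sign in both number ranges for every member but Cldn3 (0.09 and -0.05).

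**Figure D5:**
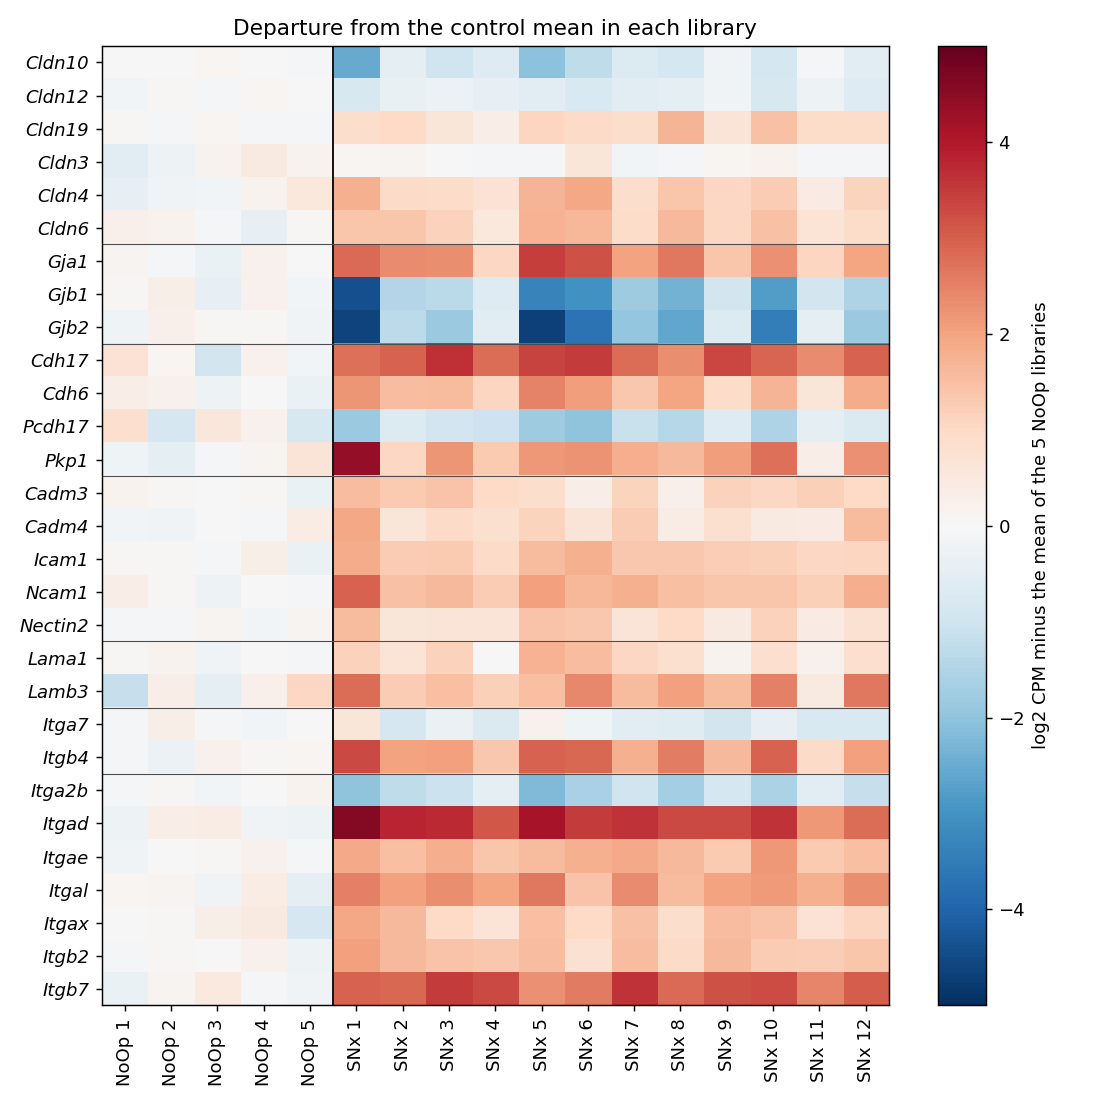
Log2 CPM minus the mean of the 5 NoOp libraries, for each member (rows) and library (columns, NoOp left of the black line), from blue (lower) to red (higher). The SNx 1 and SNx 5 columns are the deepest in colour for Gjb1, Gjb2 and Cldn10, and SNx 4 and SNx 11 the palest for many members.

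Other genes of these systems were read from lists of scaffold, microvillar, matrix and leukocyte adhesion genes, limited to those with an identifier and, like the members, to genes the study had listed. The tested ones came only from the study 1 list, so each count below is to be read against the 92.1% (49.5% higher, 42.6% lower) of the other named genes of that list that passed, and a count of passing genes near that share says nothing particular about a list. Of 8 tested junction scaffold and associated genes, 3 rose, 4 fell and 1 did not pass (median log2 fold change -0.48). Ctnnd2, a delta-catenin, rose by 3.35 ± 0.48 (adjusted p = 3.4e-05, edgeR), and Clmp, a tight junction protein listed on these kidneys, was higher by 2.54. Gjd2, a connexin best known in neurons, fell (log2 fold change -3.88 ± 0.61, adjusted p = 7.6e-05), and so did Shroom2, which binds apical actin (-0.49 ± 0.09, adjusted p = 0.00037).

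The intermicrovillar adhesion complex, which ties the tips of brush border microvilli together, fell in all 4 genes measured (median -1.23), where 42.6% of the other named genes of the study 1 list fell. Ush1c, its scaffold, was at 6.99 ± 0.51 in SNx and 8.02 ± 0.10 in NoOp (log2 fold change -0.96 ± 0.20, adjusted p = 0.00081, edgeR), and Calml4, a light chain of the complex, at 5.52 ± 0.79 and 6.89 ± 0.21 (-1.20 ± 0.31, adjusted p = 0.0036). Both were in all SNx libraries below all controls. Proximal tubule markers fell beside them, and their part in this result was not tested.

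Focal adhesion and matrix adhesion genes were mostly higher, with 10 of 13 tested that rose, 2 that fell and 1 that did not pass (median 1.06, against 49.5% higher in that list). Cd44, the hyaluronan receptor, and Spp1, the integrin ligand osteopontin, were listed on these kidneys and were higher by 2.76 and 4.44 in log2 fold change. Npnt, a ligand of integrins in kidney development, was also so listed and had -1.28, while Tgfbi, a matrix protein that binds integrins, fell (-0.95 ± 0.19, adjusted p = 0.00063, edgeR). Of 12 leukocyte adhesion genes, 11 rose and 1 did not pass (median 1.74). Parvg, which links integrins to actin in blood cells, rose by 2.19 ± 0.18 (adjusted p = 2.1e-07, edgeR) and Coro1a, a leukocyte actin regulator, by 2.12 ± 0.18 (adjusted p = 2.2e-07).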

How the data were processed

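Kidney RNA of 12 SNx and 5 NoOp rats of study 2 was analysed, 1 ribosomal RNA-depleted, strand-specific, paired-end library per rat. The authors quantified transcripts against the rn6 transcriptome (the submitters' processing notes name Salmon and limma) and deposited estimated counts per gene, used here after rounding. They also deposited log2 values after limma's voom transformation, used only as an alternative. The 34 columns of 2 whole-series tables repeat these and were not used. Counts were tested in R 4.3.3 with edgeR 4.0.16 (filterByExpr, TMM, quasi-likelihood test, Benjamini-Hochberg adjustment over 15438 genes, FDR < 0.05), and checked on simulated data. Standard errors (SE) of log2 fold changes were back-computed as the absolute log2 fold change over the square root of the test's F statistic. Alternatives included DESeq2 1.42.0 and limma 3.58.1. Ratios were compared by two-sided exact permutation over 6188 assignments, adjusted over 7, and 8 correlations by 100000 permutations, adjusted over 8. Nothing says whether 2 libraries share a litter or cage. Members and lists were chosen with earlier results of these data known. The symbol rule takes 30 genes, of which 1, with its 2 correlations, is not reported here. All other members are named, as are at most 4 other genes per list, the 2 with the smallest p in each direction. Symbols came from the part of the study's supplementary transcript lists used here, so genes outside it are unnamed. Promoters came from RefSeq (GRCr8). Figures used Python 3.11.15 and matplotlib 3.10.9.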

Additional observations from a re-analysis of the deposited data

Results flagged for a closer look

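Within the 5 controls, each of the 29 members and 7 ratios was searched for 1 library standing apart from the rest (Dixon's criterion at the 95% level, critical value 0.71). Of these 36 sets of values, 1 met it, where chance would give about 1.8. Cadm3 in NoOp 5 was 1.60 log2 CPM, whereas the other controls lay at 1.95 to 2.08. Its log2 fold change stayed between 0.99 and 1.12 when any single library was left out.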

How the results depend on the processing

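No paired analysis was possible because SNx and NoOp libraries came from different rats and the labels do not match any of them in pairs. With library size alone in place of TMM, the median log2 fold change of all genes moved from 0.02 to 0.23, and 7044 genes were called higher and 2403 lower, where TMM gave 4672 and 4277. No member but Cldn3 changed direction under any alternative. Requiring at least a 1.5-fold change left 3110 genes higher and 2055 lower, and Cldn12 (-0.50) was lost. Requiring at least 10 counts in every library left 13 members higher. Cdh17 was not tested under that filter because of its low counts in controls. Leaving out each library in turn gave 4148 to 4882 genes higher and 3766 to 4556 lower, with 14 members higher throughout and 5 to 6 lower. Cldn3, never called, was -0.05 in the second number range and -0.09 to 0.14 with single libraries left out. The Cldn10/Lrp2 ratio lost its call in the first number range (0.21), with the deposited log2 values (0.36, adjusted p = 0.0801), without SNx 1 and SNx 10 (0.34, adjusted p = 0.0851), an alternative chosen after seeing the data, and in 12 of the 17 runs without 1 library (0.38 to 0.52). With another proximal tubule marker in place of Lrp2, also chosen after seeing the data, Gjb1 gave 0.30 (Slc22a6), -0.03 (Slc34a1), -0.08 (Aqp1) and -0.61 (Slc6a19), none passing, and Cldn10 gave -0.09 (Cubn), 0.50 (Slc6a19) and 1.08 (Slc34a1), none passing. Icam1/Ptprc lost it in the first number range (-0.70), with -0.98 to -0.72 over single libraries left out. Itgal/Ptprc, never called, was 0.03 with the deposited values and -0.21 to 0.00 with single libraries left out. Cldn3 and Cldn4 passed with the deposited values (r = 0.63) and library size alone (r = 0.66), and with single libraries left out r was 0.20 to 0.67. Without SNx 1 and SNx 10, r was 0.67 for Itgb2 and Itgax, not passing (adjusted p = 0.066), and -0.35 for Itgb2 and Icam1. With single libraries left out these were 0.63 to 0.81 and -0.34 to 0.65. The causes were not tested. In all, 336 of 372 alternative values for the main counts, ratios and correlations kept direction and side of the threshold. With 5 controls, and with Cdh17 at 1 to 7 counts in them, small differences could not be resolved.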
